A study of Mus musculus with 10 samples.

Results

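The oxidative phosphorylation genes described here are the 97 genes named for subunits of the 5 respiratory complexes among the 25178 genes of the count table. They were taken by symbol (Nduf, Sdh, Uqcr, Cyc1, Cox4 to Cox8 and Atp5 names) together with the 13 protein genes of the mitochondrial genome. Of the members, 84 are encoded in the nucleus and 13 in the mitochondrion. Complex I has 38 nuclear and 7 mitochondrial members, complex II has 4 nuclear members, complex III has 9 and 1, complex IV has 16 and 3, and complex V, the ATP synthase, has 17 and 2. Ndufa4 and Ndufa4l2 were counted with complex IV, with which their proteins are known to associate. Each library was made from marrow flushed from 1 hindlimb of 1 C57/BL6 mouse, an inbred strain, from which cells of mature lineages had been removed on magnetic beads, so that stem and progenitor cells were enriched. The groups were 5 females and 5 males at steady state. No treatment or mutant allele is named for either sex, and the sources used here do not give the ages. RNA was sequenced in bulk and addresses how blood formation differs between the sexes.

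In oxidative phosphorylation, complexes I, III and IV pass electrons from NADH and succinate to oxygen and pump protons across the inner mitochondrial membrane, complex II feeds electrons in from succinate without pumping, and complex V uses the proton gradient to make ATP. Complexes I, III, IV and V need proteins from both genomes, and complex II is built from nuclear genes alone. Long-term stem cells of the marrow are known for low respiration, while dividing progenitors rely on it more.

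Libraries held 20754101 to 24759687 counts. Libraries of a sex correlated across genes at r = 0.958 to 0.995, and no pair was alike within sampling noise (the lowest chi-square was 8.93 for each degree of freedom). The 12 stem and progenitor markers (Kit, Cd34, Gata2 and others) were all tested and summed to 1121 to 1302 CPM in females and 871 to 1235 CPM in males, where CPM are counts scaled to a common total over the genes tested by edgeR's TMM method. Male replicates 1 and 2 stand apart from the rest in earlier results of these data. In male replicate 2 the TMM factor was the lowest (0.886, against 0.964 to 1.05 in the others), and its log2 levels relative to the mean of the 10 mice decreased with transcript length (Spearman rho = -0.603 across 14663 genes). In male replicate 1 the 12 mature neutrophil markers (S100a8, S100a9, Camp and others) summed to 9399 CPM and the 10 erythroid markers (hemoglobin genes, Alas2 and others) to 36428 CPM. In male replicate 2 these sums were 2904 and 20739 CPM, and in females they were 283 to 1056 and 3971 to 7412 CPM. In bulk RNA, fewer cells of a type and less RNA per cell cannot be told apart.

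The mitochondrially encoded members were the most abundant. Levels were compared between genes per length, as TPM, with the SD over the 10 libraries. The 13 mitochondrial genes ranged from 616 ± 211 TPM for mt-Nd6 to 7371 ± 1342 TPM for mt-Atp6, the proton channel subunit of complex V, and their median was 1371 TPM. The 84 nuclear members had a median of 225 TPM, and the 81 of them that passed the filter on low counts one of 230 TPM. The median over all 14674 genes tested was 11.8 TPM. Summed per library, the mitochondrial members made up 38770 ± 2955 TPM and the nuclear members 25541 ± 1670 TPM. The ratio of mitochondrial to nuclear member counts lay between 1.36 and 1.66 in the 10 libraries, and the sexes overlapped (1.45 ± 0.0791 in the 5 females against 1.51 ± 0.124 in the 5 males, SD).

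**Figure D1:**
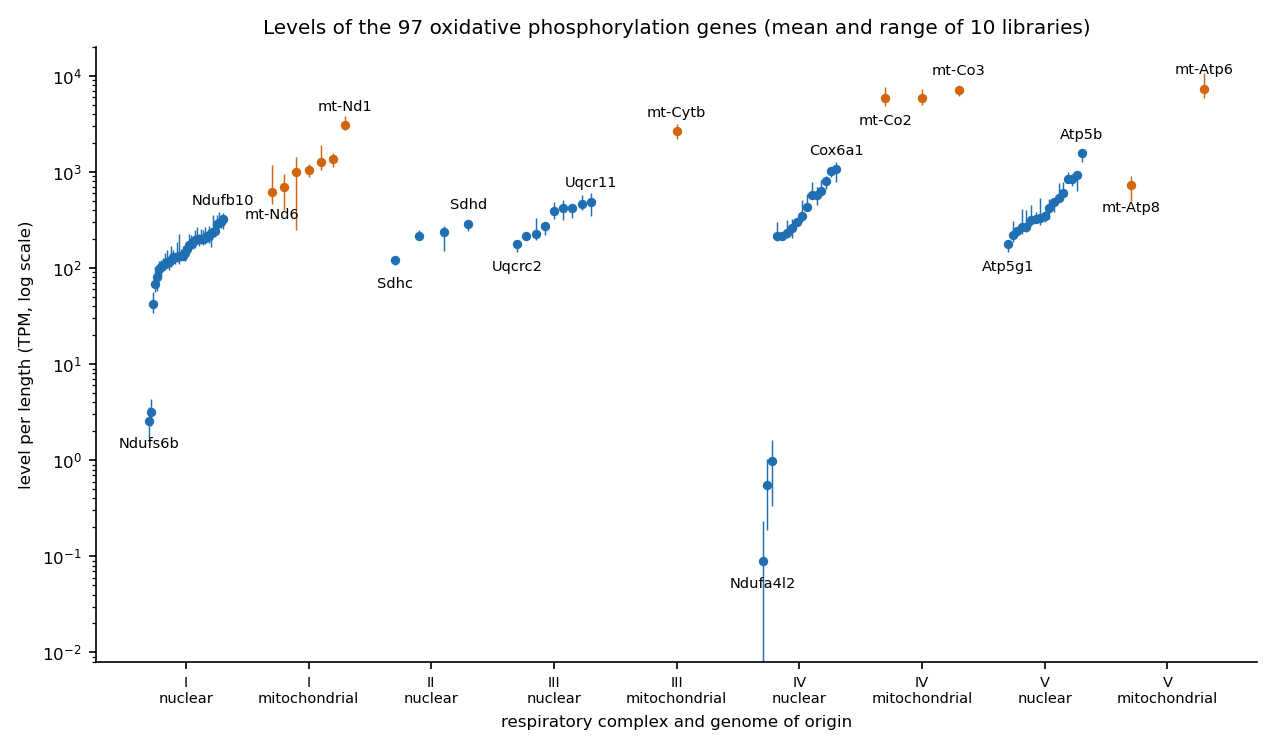
Level per length (TPM, log axis) of the 97 members, ordered by level within each complex and genome of origin. Points are means and lines the lowest and highest of 10 libraries; the line of Ndufa4l2, which was at 0 in some libraries, is cut by the axis. The 13 mitochondrial genes (orange) start at 616 TPM, above most of the nuclear genes (blue), and 5 nuclear members lie under 10 TPM.

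By complex, the mitochondrial members ranked IV, V, III and I in median level. The mitochondrially encoded core subunits of cytochrome c oxidase, mt-Co3, mt-Co1 and mt-Co2, were at 7219 ± 479, 5873 ± 729 and 5843 ± 813 TPM. The levels of mt-Co1 and mt-Co2 differed by less than their spread. Apocytochrome b of complex III, mt-Cytb, was at 2652 ± 293 TPM. The complex I genes followed from mt-Nd1 (3068 ± 355 TPM) over mt-Nd4 (1371 ± 152), mt-Nd3 (1273 ± 282), mt-Nd2 (1051 ± 114), mt-Nd4l (1009 ± 358) and mt-Nd5 (696 ± 163) to mt-Nd6. The latter is the only one of the 13 on the opposite strand, and reads of the 2 strands cannot be told apart, since the sources used here do not give the strand setting. The second complex V gene, mt-Atp8, was at 728 ± 136 TPM, and mt-Atp6 was 10.1-fold higher. The end of mt-Atp8, 21.1% of its exon bases, overlaps the start of mt-Atp6 on the same strand. How reads that cover both genes were counted was not tested, so this ratio and the median of complex V are uncertain.

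These levels depend on how reads were counted that fit both the mitochondrial genes and copies of them in the nuclear genome. On chromosome 1 (GRCm38, chr1:24611535-24616197, 4663 bases) GENCODE annotates 7 neighbouring pseudogenes that are copies of mt-Co1, mt-Co2, mt-Atp6, mt-Co3, mt-Nd3, mt-Nd4l and mt-Nd4. The copies of mt-Co2, mt-Atp6, mt-Co3, mt-Nd4l and mt-Nd4 differed from the aligned part of their gene by 0 substitutions. The copies had counts of the same order as the genes. Over the 10 libraries mt-Co2 had 620718 counts and its copy Gm28661 619929, with a copy to gene ratio of 0.992 to 1.002 in single libraries. The gene mt-Co3 had 875807 counts and Gm28437 866112, and mt-Nd4l had 45134 and Gm10222 44884. Gm10925, the copy of mt-Atp6, had 985954 counts against 784058 for the gene itself. Copies that hold only a part of their gene had fewer counts than the gene, with 305546 for Gm29216 (492 of the 1545 bases of mt-Co1) and 136745 for Gm28439 (876 of the 1378 bases of mt-Nd4). With the copies added to their genes, an alternative added once the data had been seen, the median levels of the mitochondrial members rose. They went from 5873 to 11837 TPM for complex IV, from 4049 to 8725 TPM for complex V and from 1051 to 2018 TPM for complex I. Reads counted in full at both places would be held more than once in these sums, which would then be too high. For mt-Nd1, mt-Cytb, mt-Nd6 and mt-Atp8 no copy was found by the search used (at least 95% identity over at least 100 bases), so the order between these genes and the others is uncertain. For mt-Co2, mt-Nd4l and mt-Nd3, gene and copy moved in step from library to library. The copy to gene ratio was 0.990 to 0.999 for mt-Nd4l and 0.969 to 0.979 for mt-Nd3. In male replicate 2, where mt-Nd4l was lowest, the counts were 1306 and 1295 for Gm10222. The ratio varied more for mt-Atp6 (1.17 to 1.30), for mt-Co1 with Gm29216 (0.189 to 0.340) and for mt-Nd4 with Gm28439 (0.358 to 0.517). Gm29216 had 46242 counts in male replicate 2 and 23786 to 34329 in the others, while mt-Co1 had 135882 and 123408 to 158436. Whether such reads were counted in full at both places, as a share at each or at 1 of them was not tested.

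The copy of mt-Nd3, Gm28438, had 67808 counts against 69550 for the gene, although the annotated sequences differ at 1 base, T3C, counted from the first base of mt-Nd3. Their first bases are shown with that base in capitals, since a read can be assigned by sequence only where it covers such a base.
mt-Nd3: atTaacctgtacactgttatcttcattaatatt
Gm28438: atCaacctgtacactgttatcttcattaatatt

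The whole of mt-Nd4l is shown because its first 294 bases were identical to Gm10222 and because its levels by mouse departed from those of its neighbours, as described with the mouse by mouse values. Capitals mark the 3 bases outside the copy.
mt-Nd4l: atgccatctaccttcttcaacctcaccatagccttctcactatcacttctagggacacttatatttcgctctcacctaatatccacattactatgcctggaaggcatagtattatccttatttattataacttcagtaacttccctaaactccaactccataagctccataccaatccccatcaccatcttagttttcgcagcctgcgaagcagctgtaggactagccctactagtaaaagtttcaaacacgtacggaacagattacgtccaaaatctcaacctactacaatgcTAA

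Among the nuclear members of complex I, levels ran from 323 ± 30.1 TPM for Ndufb10, an accessory subunit of the membrane arm, down to 2.58 ± 0.678 TPM for Ndufs6b. Among the nuclear core subunits, which carry the flavin and the iron-sulfur clusters, were Ndufv1 at 245 ± 20.9 TPM, Ndufs7 at 232 ± 29.0, Ndufs8 at 185 ± 12.9, Ndufv2 at 177 ± 17.0, Ndufs3 at 135 ± 12.6 and Ndufs1 at 80.2 ± 9.33. These core genes spread over a range of levels that overlapped that of the accessory genes. Ndufs6b and Ndufb4c are annotated as processed pseudogenes in GENCODE, and the entry used for Ndufb1 as a long non-coding RNA of a bidirectional promoter. Ndufb4c, at 135 ± 11.9 TPM, is identical to Ndufb4 (98.5 ± 9.998 TPM) over 390 bases, so their levels cannot be separated. Ndufb2, an accessory subunit, was at 3.18 ± 0.667 TPM, with 3.57 to 9.76 CPM in single libraries. All other nuclear complex I genes but Ndufs6b were at 42.2 TPM (Ndufs4) or above. The length used for Ndufb2 was 2413 bases, the median of its annotated protein-coding transcripts.

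The 4 complex II genes spanned a narrow range, from Sdhc, a membrane anchor, at 120.0 ± 7.31 TPM to Sdhd, the other anchor, at 291 ± 19.9 TPM. The flavoprotein subunit Sdha was at 237 ± 38.5 TPM and the iron-sulfur subunit Sdhb at 215 ± 14.4 TPM, which overlapped. In complex III the small subunit Uqcr11 was highest at 492 ± 64.0 TPM and the core protein Uqcrc2 lowest at 178 ± 12.8 TPM. The catalytic subunits Cyc1 and Uqcrfs1 were at 271 ± 24.0 and 214 ± 9.23 TPM. In complex V the catalytic beta subunit Atp5b, at 1572 ± 155 TPM, was the highest nuclear member of all, and the alpha subunit Atp5a1, which is present in equal number in the enzyme, was at 932 ± 114 TPM. The lowest complex V gene was Atp5g1 at 177 ± 13.7 TPM.

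Where a subunit has several isoform genes, most families had 1 or 2 abundant members. Cox4i1 was at 1029 ± 65.2 TPM and Cox4i2, known as the isoform of lung and of low oxygen, at 0.555 ± 0.283 TPM with 63 counts in all. Cox7a2 and Cox7a2l were at 230 ± 34.3 and 217 ± 11.3 TPM, whereas Cox7a1, the heart and muscle isoform, was at 0.987 ± 0.425 TPM (67 counts). Ndufa4 was at 575 ± 80.3 TPM and Ndufa4l2 at 0.0891 ± 0.104 TPM (12 counts). Cox4i2, Cox7a1 and Ndufa4l2 were the 3 members that did not pass the filter on low counts. Cox6b2, which is known as a testis isoform, was an exception. It was at 262 ± 35.0 TPM beside 635 ± 77.1 TPM for Cox6b1. In single libraries Cox6b2 ranged from 59.2 to 86.1 CPM in females and from 67.1 to 131 CPM in males, so it was present in every mouse, and the search for near-identical copies found none. Cox8a, Cox6a1 and Cox7b, each the only analysed member of its family, were at 804 ± 66.0, 1066 ± 126 and 217 ± 30.5 TPM. The 3 genes that encode the same c-ring protein of complex V were Atp5g2 at 854 ± 84.3 TPM, Atp5g3 at 839 ± 67.7 and Atp5g1, and the first pair did not differ beyond its spread. The level of Atp5g2 is uncertain because 2 near-identical genes, of which Gm10175 had the most counts, held 42527 counts beside its own 77017. Near-identical genes also held more than 10% of the member's own count for Atp5l, Cox7c, Ndufb4, Ndufs5 and Ndufs6b, whose levels are uncertain to that extent.

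Promoters were examined for letters known to be bound by regulators of respiratory genes. RefSeq promoters (GRCm38.p6, 250 bases before to 50 after the start) were matched by gene for 67 of the 84 nuclear members. The palindromic core CGCATGCG of the sites of NRF1, a factor known for nuclear respiratory genes, was found in 9 of the 67 (13.4%), against 2.07% of 27025 genes in the promoter table and 4.30% of the 9911 genes tested. These 9 were Ndufa8 and Ndufa11 of complex I, Uqcr11 and Uqcrc1 of complex III, Cox6a1 of complex IV and Atp5g2, Atp5j, Atp5k and Atp5l of complex V. The ETS core CCGGAAG, part of the sites of GABP (also called NRF2), was found in 17 (25.4%), against 9.93% and 20.5%. The core AAGATGGCG, which YY1 binds, was found in 7 (10.4%), against 1.64% and 3.67%. Both strands were searched, and none of the 3 motifs holds another. The 4 promoters whose NRF1 core lay nearest to the start while wholly before it are shown over 100 bases, 5′ to 3′ on the gene's strand, with the core in capitals. The core begins 9, 41, 49 and 59 bases before the start.
Ndufa8, chr2:36049339-36049438, minus strand: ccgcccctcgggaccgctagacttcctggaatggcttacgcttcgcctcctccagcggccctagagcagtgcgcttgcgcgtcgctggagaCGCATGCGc
Atp5g2, chr15:102671048-102671147, minus strand: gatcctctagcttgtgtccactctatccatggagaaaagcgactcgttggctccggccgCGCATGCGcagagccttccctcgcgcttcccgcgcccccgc
Atp5k, chr5:108434400-108434499, minus strand: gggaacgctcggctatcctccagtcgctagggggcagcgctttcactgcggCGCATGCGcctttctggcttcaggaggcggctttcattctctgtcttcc
Ndufa11, chr17:56717657-56717756, plus strand: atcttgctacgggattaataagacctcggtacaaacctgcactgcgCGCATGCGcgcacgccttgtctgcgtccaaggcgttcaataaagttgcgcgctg

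Across the 10 mice, members of all complexes and of both genomes were highest in male replicate 2. Of the 81 nuclear members tested 78 had their highest CPM there, and of the 13 mitochondrial members 10, against 29.8% of all genes tested. Averaged over members as log2 CPM, male replicate 2 lay above the mean of the 10 mice by 0.73 for nuclear complex I, 0.25 for complex II, 0.56 for complex III, 0.75 for complex IV and 0.69 for complex V, and by 0.50 for the mitochondrial members. The other 9 mice lay between -0.17 and 0.09 for the nuclear members and between -0.19 and 0.12 for the mitochondrial members. The mitochondrial members took 3.15% of all counts in male replicate 2 and 2.12% to 2.58% in the other 9 mice, and the nuclear members 2.02% and 1.51% to 1.68%.

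**Figure D2:**
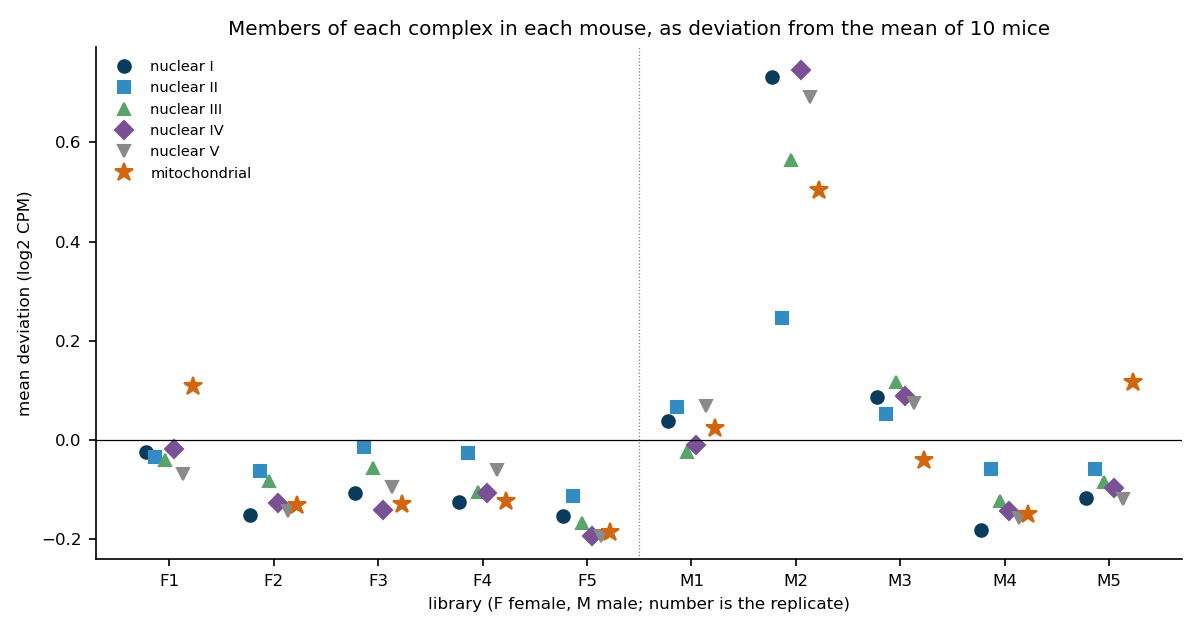
Mean deviation of the members tested from the mean of the 10 mice (log2 CPM, vertical axis) in each library, for the nuclear members of complexes I to V and for the mitochondrial members. In M2 (male replicate 2) complexes I, III, IV and V lie between 0.56 and 0.75 and complex II at 0.25, and the other 9 libraries lie between -0.19 and 0.12.

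The members that were not highest in male replicate 2 were among the longest transcripts, with mt-Nd4l as the exception. The flavoprotein gene Sdha had 469, 471, 494, 442 and 469 CPM in female replicates 1 to 5 and 419, 401, 455, 476 and 484 CPM in male replicates 1 to 5. It was lowest in male replicate 2. Atp5a1 ranged from 1567 to 1656 CPM in the other 9 mice and was at 1516 CPM in male replicate 2. Ndufs1, the largest core subunit of complex I, was at 135 to 151 CPM in the other 9 and 140.2 CPM in male replicate 2, within their range. Among the nuclear members the gap was largest for Ndufa5, an accessory subunit of complex I, at 124 CPM in male replicate 2 and 42.1 to 56.8 CPM in the other 9 (1.37 on the log2 scale).

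Transcript length moved with this pattern. Among the 81 nuclear members, the log2 CPM of male replicate 2 minus the mean of the other 9 decreased with length (Spearman rho = -0.51 across genes, which share the libraries and are not independent). The 30 nuclear members under 600 bases had a median difference of 0.88, where the 224 protein-coding genes of that length, members included, had 0.85. From 600 to under 1000 bases the medians were 0.88 (25 members) and 0.71 (806 genes), from 1000 to under 2000 bases 0.56 (20 members) and 0.31 (2934 genes), and for 2000 bases or more 0.26 (6 members) and -0.33 (8069 genes). Short members therefore lay near other short genes in this 1 library, and long members above the median of their class. The class of 2000 bases or more has no upper bound, and its members were only 2020 (Ndufa10) to 2900 bases (Sdha) long. Its 2 medians are therefore not those of genes of like length. The nuclear members had a median length of 742 bases and all genes tested one of 2318 bases. The part of length in these values was not tested beyond this comparison and the fits with a length term given with the sex difference.

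**Figure D3:**
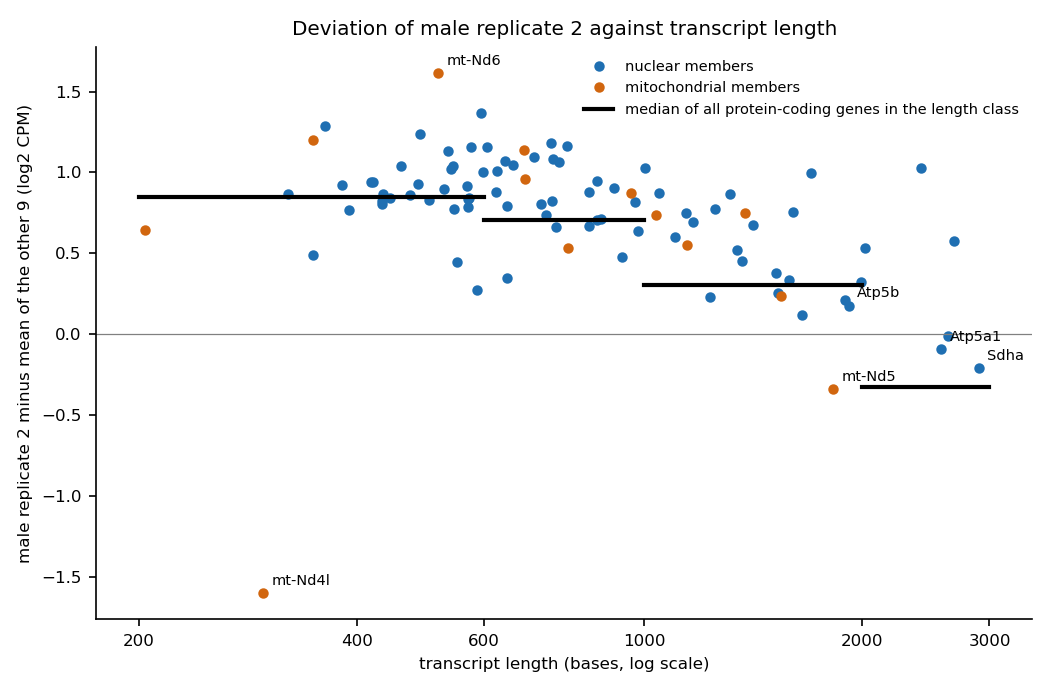
Male replicate 2 minus the mean of the other 9 libraries (log2 CPM, vertical axis) against transcript length (bases, log axis) for the 94 members tested, with the median of all protein-coding genes in 4 length classes as black lines. Nuclear members (blue) decline from about 0.88 in the shortest class to 0.26 in the longest, and mt-Nd4l, at -1.60, lies far below the other short members.

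The mitochondrial genes did not vary as 1 block. In male replicate 2, mt-Nd4l was at 67.8 CPM, while the other males had 133, 190.0, 212 and 270.3 CPM and the females 263, 233, 218, 168 and 204 CPM. Its neighbour mt-Nd4, with which it shares a transcript in the known scheme of mitochondrial transcription, was highest in the same library at 2028 CPM, against 1051 to 1389 CPM in the other 9. The count of mt-Nd4l per count of mt-Nd4 was thus 0.0334 in male replicate 2 and 0.112 to 0.201 in the others. As raw counts, mt-Nd4 had 39062 in male replicate 2 and 25298 to 31752 in the other 9. Its copy Gm28439, which holds 876 of the 1378 bases of mt-Nd4, had 13965 there and 12624 to 14839 in the other 9. That copy to gene ratio, 0.358, was the lowest of all libraries. Whether mt-Nd4 was higher along its whole length in male replicate 2 was not tested. On the other side of mt-Nd4l, mt-Nd3 was highest in the library where mt-Nd4l was lowest. It was at 620.0 CPM in male replicate 2, 408 in male replicate 1 and 309 in female replicate 4, and at 230.4 to 302 CPM in the other 7. Those 3 libraries had the 3 lowest levels of mt-Nd4l (67.8, 133 and 168 CPM) and of mt-Nd5 (674, 707 and 751 CPM, against 766 to 1129 in the other 7). They also had the 3 highest shares of the mitochondrial ribosomal RNAs in all counts, 0.102%, 0.0959% and 0.0992%, where the other 7 libraries had 0.0517% to 0.0729%. These libraries were singled out after their values were seen.

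**Figure D4:**
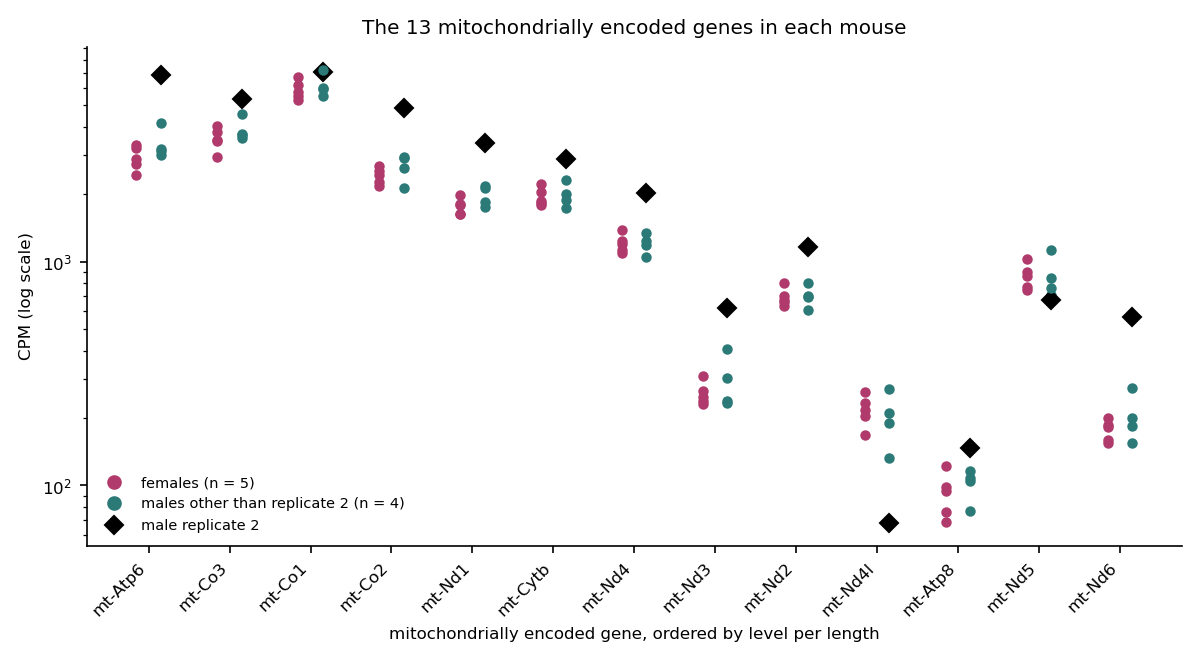
CPM (log axis) of the 13 mitochondrially encoded genes in each mouse, ordered by level per length, with females, the other 4 males and male replicate 2 (black diamonds) drawn apart. The diamond is highest in 10 of 13 genes, is below every other mouse in mt-Nd4l (67.8 CPM) and mt-Nd5 (674 CPM), and is second in mt-Co1.

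Other mitochondrial genes gave a different picture. The gap to the other mice was largest for mt-Nd6, at 569 CPM in male replicate 2 and 154 to 272 CPM in the other 9. In mt-Co1 male replicate 5 (7224 CPM) lay above male replicate 2 (7056 CPM), and the other 8 mice had 5309 to 6719 CPM.

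How closely the members moved together depended on that library. Over all 10 libraries the median correlation of log2 CPM between pairs of nuclear members was 0.90 (81 genes), between pairs of mitochondrial members 0.69 (13 genes) and between a nuclear and a mitochondrial member 0.79. Without male replicate 2 (9 libraries) these medians were 0.56, 0.46 and 0.25. Without male replicates 1 and 2 (8 libraries) they were 0.62, 0.55 and 0.29. The pairs share libraries, scaling and depth, so these values describe the libraries. Between mt-Nd4l and the other 12 mitochondrial genes the median was -0.71 with male replicate 2 and 0.19 without it.

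Between the sexes, no member passed the test. Of the 94 members tested 0 were called (edgeR quasi-likelihood test, adjusted p under 0.05, lowest adjusted p = 0.506), and 0.0545% of all genes tested, or 8 genes, were called. At an unadjusted p under 0.05 there were 7 members, all with a lower mean in females, where 9.17% of all genes had such a p in either direction and 5.41% with the lower mean in females. Ndufb4c, annotated as a pseudogene, was among the 7. DESeq2 called 0 of the members (0.337% of all genes) and had 15 at an unadjusted p under 0.05 (7.32% of all genes). Without a filter on low counts edgeR had 13. The count of 7 depended on single libraries. It was 31 without male replicate 4 or male replicate 5, 4 without male replicate 1, 3 without male replicate 2, 2 without female replicate 4, and 1 without female replicate 2, 3 or 5. No member was called in these fits.

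The fold changes of the members had mostly 1 sign, and their size depended on male replicate 2. With log2 fold changes given as female against male, 79 of 81 nuclear and 11 of 13 mitochondrial members had a negative value, against 52.0% of all genes tested. The medians were -0.26 for the nuclear and -0.23 for the mitochondrial members, and -0.01 over all genes tested. By complex, the nuclear medians were -0.27, -0.13, -0.24, -0.28 and -0.28 for complexes I to V, and without male replicate 2 they were -0.06, -0.08, -0.06, -0.06 and -0.09. Without male replicate 2 the nuclear and mitochondrial medians were -0.07 and -0.13, with 77 of 81 and 10 of 13 values negative, against 50.6% of all genes. Without male replicates 1 and 2 they were -0.06 and -0.05. With an offset for transcript length in each library they were -0.06 and -0.05, with 64 of 81 and 10 of 13 negative. Without male replicate 2, protein-coding genes under 600 bases had a median of -0.07, as had the nuclear members of that length. No p was computed for these medians.

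**Figure D5:**
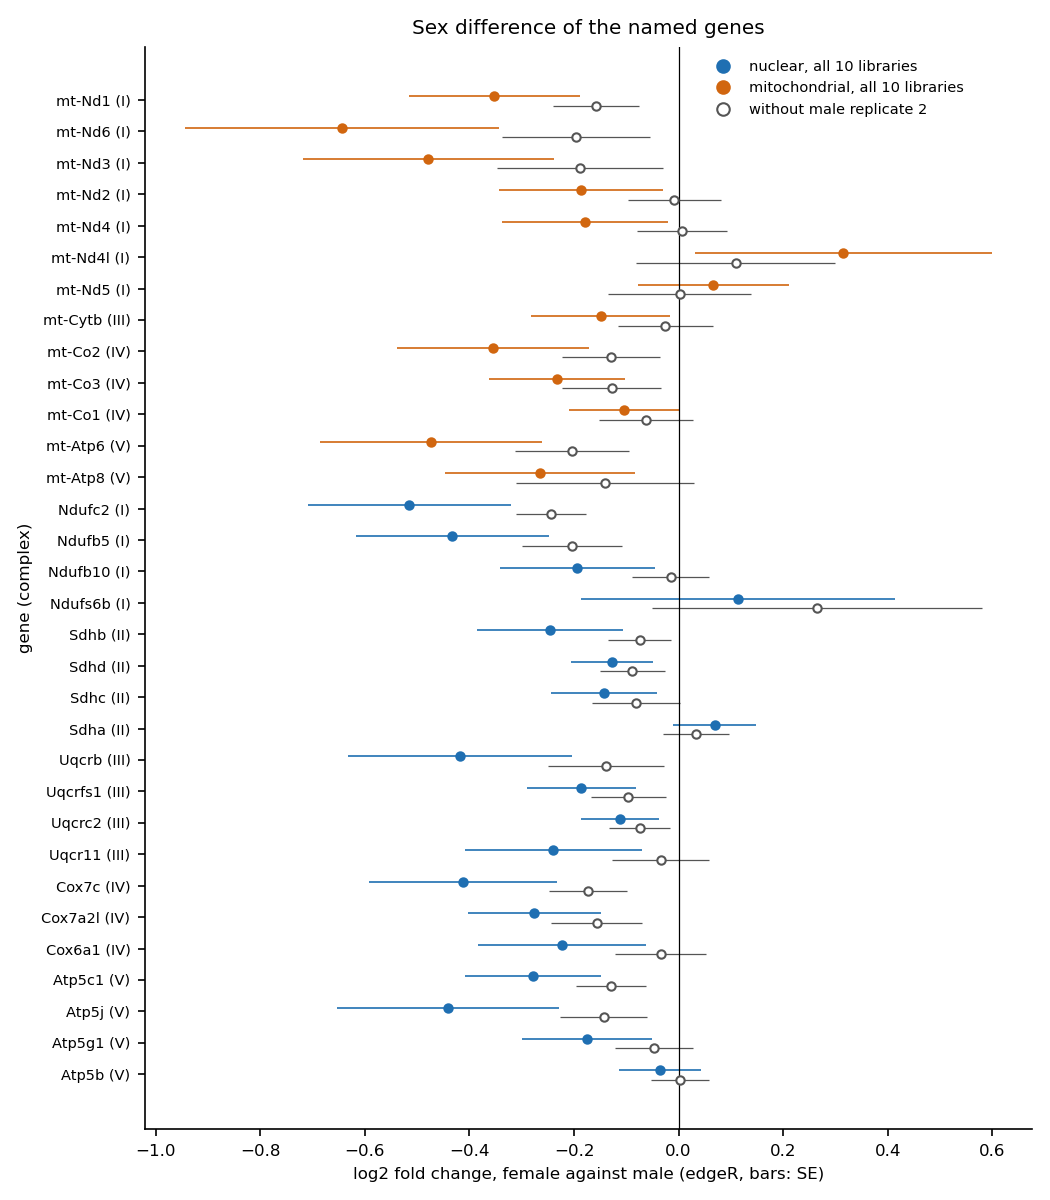
Log2 fold change, female against male, of the named members with their SE as bars (edgeR), over all 10 libraries (filled) and without male replicate 2 (open). Most filled points lie between -0.64 and 0, and without male replicate 2 all but Ndufs6b lie between -0.24 and 0.11.

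Ndufc2, an accessory subunit of the membrane arm of complex I, was the 1 member whose sexes did not overlap. It was at 85.2, 76.2, 79.3, 79.7 and 74.6 CPM in female replicates 1 to 5 and at 101, 190.2, 96.4, 89.6 and 87.2 CPM in male replicates 1 to 5. Every female lay below every male, as in 0.865% of all genes tested, and no member had every female above every male, as 1.06% of all genes had. Female and male means were 79.0 ± 4.09 and 113 ± 43.5 CPM (SD, n = 5 each). The log2 fold change was -0.52 (SE 0.19, edgeR adjusted p = 0.506). Without male replicate 2 the male mean was 93.7 ± 6.48 CPM and the fold change -0.24 (SE 0.07, edgeR adjusted p = 0.501).

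The other named members overlapped between the sexes. Ndufb5, a further membrane arm subunit, was at 67.0 to 79.0 CPM in females against 74.6 to 156 CPM in males (log2 fold change -0.43, SE 0.18, and -0.20, SE 0.10, without male replicate 2). Cox7c, a small subunit of complex IV, was at 133 to 145 CPM in females against 137 to 296 CPM in males (-0.41, SE 0.18, and -0.17, SE 0.08, without that library). For Cox7a2l the ranges were 137 to 165 and 149 to 236 CPM (-0.28, SE 0.13, and -0.16, SE 0.09, without it). In complex III, Uqcrb was at 72.1 ± 6.48 CPM in females against 96.4 ± 39.7 CPM in males, and the Rieske protein gene Uqcrfs1 at 185 ± 11.2 and 211 ± 31.4 CPM. In complex V, Atp5c1, the central stalk subunit, was at 251 ± 13.3 and 305 ± 68.6 CPM, and Atp5j, a subunit of the outer stalk, at 118 ± 6.07 and 159.8 ± 67.8 CPM. In each of these genes the male SD was larger than the female SD, and male replicate 2 was the highest mouse. Without that library the male means were 79.6 ± 14.5 CPM for Uqcrb, 198 ± 16.7 for Uqcrfs1, 275 ± 20.98 for Atp5c1 and 130.2 ± 17.0 for Atp5j. In complex II, Sdhb was at 154 ± 6.34 against 182 ± 46.2 CPM (162 ± 8.92 in males without male replicate 2), Sdhd at 231 ± 7.42 against 253 ± 21.02 and Sdha at 469 ± 18.3 against 447 ± 35.8. The abundant Atp5b of complex V was at 2002 ± 78.9 CPM in females against 2052 ± 136 CPM in males (log2 fold change -0.04, SE 0.08, and 0.0029 without male replicate 2).

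Of the mitochondrial genes, mt-Nd6 had the most negative value, at 177 ± 18.9 CPM in females against 276 ± 169 CPM in males (log2 fold change -0.64, SE 0.30, edgeR adjusted p = 0.506). It was -0.20 (SE 0.14) without male replicate 2. The value of mt-Atp6 was -0.47 (SE 0.21) and -0.20 without that library, with 2433 to 3315 CPM in females and 2999 to 6806 CPM in males. The 2 mitochondrial genes with a higher mean in females were mt-Nd4l (0.32, SE 0.28, and 0.11 without male replicate 2) and mt-Nd5 (0.07, SE 0.14, and 0.0019 without it). With nuclear copies added to their genes the median of the 13 was -0.24.

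Genes that build or serve the complexes were read from lists of the same pathway. Of the 17 complex I assembly genes tested, 13 had a negative and 4 a positive fold change (median -0.15, -0.02 without male replicate 2). Of 36 assembly genes for the other complexes 28 were negative (median -0.16 and -0.03), among them Higd2a, an assembly factor of complex IV, at 35.1 ± 3.07 CPM in females against 46.4 ± 12.95 CPM in males (log2 fold change -0.40, -0.21 without male replicate 2). These lists therefore had the sign of the subunit genes and also lost most of it without that library. The 27 genes for mitochondrial transcription, replication and RNA handling were divided, with 12 positive and 15 negative (median -0.06, -0.02 without male replicate 2). The replicative helicase Twnk was at 61.7 ± 2.35 CPM in females against 49.7 ± 8.68 CPM in males, and Ssbp1, which coats single-stranded mitochondrial DNA, at 41.3 ± 4.61 and 56.0 ± 20.2 CPM. Without male replicate 2 their fold changes were 0.22 and -0.20, against 0.31 and -0.44 with it. Of the 12 nuclear regulators tested 11 had a positive value (median 0.14, 0.08 without male replicate 2). Among them Pprc1, a coactivator of NRF1 target genes, was at 135 ± 7.92 CPM in females against 101 ± 28.0 CPM in males, and Myc at 204 ± 13.8 and 169 ± 18.9 CPM. Gabpb1, a subunit of GABP, was the 1 regulator with a negative value (-0.20, SE 0.10). The median length was 3544 bases for the regulators and 1365 bases for the second assembly list. Of 18 tricarboxylic acid cycle genes 11 were negative (median -0.04, 0.0070 without male replicate 2) and of 25 genes for electron carriers and adenine nucleotide exchange 18 (median -0.10 and -0.04). The carrier Slc25a5, which exchanges ADP and ATP, was at 902 ± 48.6 and 1018 ± 97.2 CPM. In each of the 6 lists 0 genes were called by edgeR or DESeq2. At an unadjusted p under 0.05 edgeR had 2 genes in each of the second assembly list, the transcription list and the regulator list, and 0 in the other 3.

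Of the cell type markers of other lineages, 0 in any list were called by edgeR (lowest adjusted p = 0.193), and DESeq2 called 4 erythroid, 3 megakaryocyte and platelet and 2 B lineage markers. At an unadjusted p under 0.05 edgeR had 12 of 12 neutrophil, 6 of 10 erythroid, 8 of 11 megakaryocyte and platelet and 4 of 6 B lineage markers. All 12 mature neutrophil markers had a negative fold change (median -2.51, and -2.501 without male replicate 2) and a median of 1.75 in male replicate 2 minus the other 9, with summed levels of 283 to 1056 CPM in females and 229 to 9399 CPM in males. Of 10 erythroid markers 7 were negative (median -0.58), with sums of 3971 to 7412 CPM in females and 9123 to 36428 CPM in males. Of 11 megakaryocyte and platelet markers 11 were positive (median 0.45), with sums of 1828 to 2413 and 1385 to 1655 CPM. B lineage markers (6 of 6 negative), T and natural killer markers (5 of 6) and macrophage markers (7 of 7) summed to at most 48.7, 83.5 and 94.7 CPM in any library, and the 6 skeletal muscle genes to at most 24.3 CPM. Without male replicates 1 and 2 the medians were -0.95 for the neutrophil, -0.48 for the erythroid and 0.43 for the megakaryocyte and platelet markers, and those of the T and natural killer and macrophage markers were positive (0.09 and 0.69). No marker of these lists was at 0 in all libraries. Their part in the values of the oxidative phosphorylation genes was not tested.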

How the data were processed

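Bulk RNA-seq of lineage-depleted bone marrow from 5 female and 5 male mice was analysed. Per the submitters' processing notes the builds were GRCm38.p6 and mm10, and the tools named there are STAR, featureCounts and DESeq. The authors deposited raw read counts per gene for the 10 libraries, which were used as they stand; 0 rows named no gene. The sources used here do not give the handling of reads that map to several places.

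Genes were filtered with filterByExpr by sex (14674 kept), scaled by TMM and fitted on the whole table with the robust quasi-likelihood test of edgeR 4.0.16 (R 4.3.3), with sex as the only term and Benjamini-Hochberg adjustment over all genes tested, and calls needed an adjusted p under 0.05. The SE is the fold change divided by the square root of F. Alternatives used DESeq2 1.42.0, RLE scaling, other filters, each library left out, a length offset (loess, span 0.3), a replicate block and summed copies. Log2 levels used a prior count of 2. Lengths are medians of protein-coding transcripts in GENCODE vM21 (GRCm38), where 25116 of 25178 genes were found, and gene coordinates and the mitochondrial sequences come from it. For genes without a protein-coding transcript the other transcripts were used. Copies were sought with blastn (at least 95% identity over at least 100 bases and 50% of the other transcript); 35 members had one. By the rule, 3 pseudogene symbols and 1 other symbol were left out. Some values of single members are not reported here.

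The members and lists were chosen with earlier results of these data known. Named are the mitochondrial genes, in each complex up to 2 nuclear members of smallest p per direction and those of highest and lowest level, isoform families, and up to 2 genes of smallest p per direction in the pathway lists; others were named for their role or after their values were seen. In simulated counts for this comparison (14506 genes fitted), 75% of 100 genes with a log2 change of 1 and 94% of 100 with one of 2 were recovered, with 6 unchanged genes among 175 calls. The members had smaller fold changes, from -0.64 to 0.32, so these rates do not give the recovery of changes of their size. The simulated counts also held no trend with transcript length such as that of male replicate 2. Depth was at least 20754101 counts per library, and PCR copies were not told apart.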

Additional observations from a re-analysis of the deposited data

Results flagged for a closer look

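Within a sex, 14 of the 84 sets of 5 mice searched held 1 mouse far from the other 4, where chance gives about 1 in 20. The sets are genes and means of genes in the same libraries. They are not independent, and 1 library can enter many of them. In 12 of them male replicate 2 was the highest male. Its CPM, with the other 4 males in brackets, was 3400 for mt-Nd1 (1759 to 2182), 569 for mt-Nd6 (154 to 272), 4870 for mt-Co2 (2148 to 2928), 190.2 for Ndufc2 (87.2 to 101) and 252 for Ndufb10 (140.0 to 171). It was 264 for Sdhb (154 to 170.1), 296 for Cox7c (137 to 174.5), 668 for Cox6a1 (344 to 428), 423 for Atp5c1 (261 to 306) and 278 for Atp5j (115 to 149). The mean deviation of male replicate 2 was 0.75 for nuclear complex IV (-0.14 to 0.09 in the other males) and 0.69 for nuclear complex V (-0.16 to 0.07). In the other 2 sets female replicate 1 was the highest female. Its Ndufb10 was at 164 CPM (146 to 149.6 in the other females), and its mean deviation for the mitochondrial members was 0.11 (-0.19 to -0.12).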

How the results depend on the processing

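The count of called members was 0 in all 19 alternatives, with 1 to 31 members at an unadjusted p under 0.05 when 1 library was left out. The median log2 fold change ranged from -0.33 to -0.07 for nuclear and from -0.28 to -0.13 for mitochondrial members over those fits, with the values nearest 0 without male replicate 2. Same-numbered mice of the 2 sexes correlated at -0.30 to -0.01. The labels do not say whether the numbers pair the mice, and these few values cannot decide it. The fit with the replicate number as a block called 0 members (1 at an unadjusted p under 0.05) and gave medians of -0.22 and -0.22. The block with the length offset gave -0.059 and, for the mitochondrial members, -0.033. The 17 sign changes of named members started from values of -0.48 (mt-Nd3) to 0.32 (mt-Nd4l) over all libraries. With the length offset, without and with the block, values were 0.0013 and 0.0056 for mt-Cytb and so for mitochondrial complex III, 0.015 and 0.018 for Ndufb10, 0.0021 and 0.0041 for Sdhd, and 0.014 and 0.014 for Atp5b, and Uqcr11 was at 0.0038 with the block. Without male replicates 1 and 2, mt-Nd3 was at 0.0023, mt-Nd4l at -0.046, mt-Nd5 at -0.084, Sdhc at 0.010 and Sdha at -0.011. Over the fits without 1 library, mt-Nd4 ranged from -0.26 (without male replicate 4) to 0.0060 (male replicate 2), mt-Nd5 from -0.0027 (female replicate 1) to 0.21 (male replicate 5) and Atp5b from -0.069 (male replicate 1) to 0.0029 (male replicate 2). The cause of these changes was not tested. With the union of all exons as length, median levels were 276, 266 and 227 TPM for nuclear complexes III, IV and V and 1642, 4144, 9175 and 6317 TPM for mitochondrial complexes I, III, IV and V. Counts of Ndufs6b (138 in all) limit what can be read for it.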
